A study of Mus musculus with 4 samples.

Results

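The 9 genes described here encode transcription factors of the gut epithelium whose activity differs along the gut or along the axis from crypt to surface: Gata4, Gata6, Cdx1, Cdx2, Hnf4a, Hnf4g, Onecut2, Klf4 and Klf5. They were listed by name, all 9 of 9 were measured, and each had 1 probe set, among 22180 genes on the array. Levels were compared between small intestinal and colonic material on 4 whole-transcript Affymetrix mouse arrays, 1 array for each group, so no value has a replicate, an error or a test.

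The groups were intraepithelial lymphocytes (IEL, lymphocytes that sit between epithelial cells) from the small intestine of unmanipulated mice, colon IEL of mice given antibiotics and then recolonized, colon IEL of unmanipulated mice, and T cells labelled as coming from the colon lamina propria (LP), called the LP-labelled array below. All mice were C57Bl/6 animals of 8 to 10 weeks. The labels give a pool of 10 mice, 5 male and 5 female, once as a total and once for each sample. The antibiotics were vancomycin and metronidazole at 0.05% each and neomycin and ampicillin at 0.01% each, in drinking water flavoured with grape Koolaid for 7 days. Recolonization lasted 7 days and is described both as co-housing and as used bedding. IEL came from the epithelial fraction shaken off the tissue with EDTA, and lamina propria cells from the collagenase digest of what was left. All samples went through magnetic negative selection for T cells, to which an antibody against the epithelial surface protein EpCAM was added.

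The material was a mixture of cell types on every array. The 11 measured pan-epithelial markers had median log2 levels of 5.54 in small intestinal IEL, 5.07 in recolonized colon IEL, 4.53 in colon IEL and 8.09 on the LP-labelled array. The 8 measured T cell markers had medians of 7.21, 7.37 and 7.25 on the 3 IEL arrays, but 2.41 on the LP-labelled array, whose content therefore went against its label. The 10 colonocyte markers had their highest median on that array (9.52), although Mptx1 was brighter in recolonized colon IEL (7.05 against 5.89). The LP-labelled array serves below as the colonic array rich in epithelial transcripts. The 9 measured enterocyte markers of the small intestine and the 6 Paneth cell markers had medians of 8.27 and 9.20 in small intestinal IEL, against 5.31 and 3.04 on the LP-labelled array, so enterocyte transcripts were present there too. The 9 stromal markers had their highest median in colon IEL (5.41), beside 4.28 in recolonized colon IEL. They were split between these 2 arrays, with 3 at least 2-fold higher and 4 lower in recolonized colon IEL. The 3 measured red cell markers were brightest in colon IEL, with a median of 7.93 there and 2.32 in recolonized colon IEL. The 4 measured B cell markers had a median of 7.07 in small intestinal IEL, 2.33 in recolonized colon IEL, 3.86 in colon IEL and 2.0 on the LP-labelled array. On such bulk arrays, fewer epithelial cells and less RNA per cell cannot be told apart. All levels are on the log2 scale, so a difference of 1 is a 2-fold difference.

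GATA factors bind the sequence element from which they take their name; in the mouse, GATA4 marks the proximal small intestine and keeps ileal genes such as Slc10a2 and Fabp6 low there, while GATA6 is made along the whole gut. CDX1 and CDX2 are homeodomain factors that give the epithelium its intestinal identity, and the nuclear receptors HNF4A and HNF4G act together on genes of fat absorption and of the brush border. ONECUT2 is a cut-homeodomain factor of the proximal small intestine, KLF4 belongs to differentiated surface and goblet cells, and KLF5 to dividing crypt cells.

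Promoter sequences of 3 of the 9 genes, Hnf4a, Klf4 and Cdx2, were found in a RefSeq table of the mouse assembly GRCm38.p6, each running from 250 bases before to 50 bases after a transcription start. Hnf4a had 2 starts 40298 bases apart, and its single probe set gives 1 value, so the levels below do not tell transcripts of the starts apart. The promoters of Hnf4a and Cdx2 are shown. Both factors are among those that differed by 2-fold or more between the small intestinal array and the epithelium-rich colonic array. For Hnf4a the difference was −1.07, and no rescaling given below kept that call. Several of the 9 factors are known to act on one another's genes. The promoter of Klf4, which differed there as well (−1.80), had 0 matches to the motifs searched and is not shown. Capitals mark matches on either strand to AGATAA for GATA factors and to CCACCC for KLF factors; TTTATG for CDX factors and CAAAGTCCA for HNF4 factors were also searched and had no match. The 4 motifs as searched do not contain one another. The first 2 sequences are on the plus strand of chr2, at chr2:163506607-163506906 and chr2:163546905-163547204, and the third on the minus strand, at chr5:147307200-147307499.
Hnf4a upstream start: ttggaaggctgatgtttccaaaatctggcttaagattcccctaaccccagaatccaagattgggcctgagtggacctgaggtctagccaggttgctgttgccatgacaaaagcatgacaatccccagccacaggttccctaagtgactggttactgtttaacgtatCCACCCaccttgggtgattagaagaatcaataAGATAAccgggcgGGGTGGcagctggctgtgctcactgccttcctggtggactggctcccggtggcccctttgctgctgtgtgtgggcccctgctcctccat
Hnf4a downstream start: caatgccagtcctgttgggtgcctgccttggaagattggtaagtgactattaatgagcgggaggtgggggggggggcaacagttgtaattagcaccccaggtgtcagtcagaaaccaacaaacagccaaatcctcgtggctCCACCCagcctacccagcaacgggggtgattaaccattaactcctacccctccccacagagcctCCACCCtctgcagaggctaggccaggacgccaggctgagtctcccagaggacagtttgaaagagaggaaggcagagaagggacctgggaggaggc
Cdx2: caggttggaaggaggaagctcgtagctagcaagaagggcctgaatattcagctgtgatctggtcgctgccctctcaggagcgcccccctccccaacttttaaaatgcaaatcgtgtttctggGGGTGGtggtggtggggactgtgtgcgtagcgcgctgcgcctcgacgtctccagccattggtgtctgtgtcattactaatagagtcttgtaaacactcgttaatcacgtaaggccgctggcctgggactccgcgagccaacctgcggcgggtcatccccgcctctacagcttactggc

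The upstream Hnf4a window held 1 GATA match, which began 52 bases before the start, and 2 KLF matches at 84 and 39 bases before it. The downstream window held 0 GATA matches and 2 KLF matches, at 109 and 45 bases before the start. Cdx2 had 1 KLF match 128 bases before its start, and the Klf4 window, which is rich in G and C (74.3%), had 0 matches to any of the 4 motifs. Of 32851 promoters of this length, 11.2% hold the GATA motif, 31.5% the KLF motif, 11.9% the CDX motif and 0.475% the HNF4 motif. A match is a description of letters and not a bound site, and no binding was measured.

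Hnf4g was the member with the widest range over the 4 arrays, 6.35. Its level was 8.85 in small intestinal IEL, 3.40 in recolonized colon IEL, 2.50 in colon IEL and 5.95 on the LP-labelled array. The small intestinal level stood above all 3 colonic levels, and was at the 99.4th percentile of all genes on its array, against the 91.6th on the epithelium-rich colonic array. The difference was 2.90 (7.47-fold) against the LP-labelled array, although all 11 measured pan-epithelial markers differed there in the other direction, by −3.91 to −1.06. Against recolonized colon IEL it was 5.45 and against unmanipulated colon IEL 6.35, where the level of 2.50 lay next to the array's median of 2.41.

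Hnf4a, whose protein is the partner of HNF4G in the epithelium, was at 6.66 in small intestinal IEL, 4.89 in recolonized colon IEL, 4.97 in colon IEL and 7.73 on the LP-labelled array. It was thus lower on the small intestinal than on the epithelium-rich colonic array, with a difference of −1.07, and higher than in recolonized and unmanipulated colon IEL, with differences of 1.76 and 1.68. The first of these differences lay within 2-fold under quantile normalization (−0.96), and it turned to 1.08 when differences were centred on the pan-epithelial markers. Against recolonized colon IEL the difference was within 2-fold under quantile normalization (0.98) and that centring (0.87). Against colon IEL it was within 2-fold under quantile normalization (0.55) and lowess (0.68), and −0.10 after centring. Set against each other, the difference of Hnf4g between small intestine and colon was above that of Hnf4a by 3.97 with the LP-labelled array, by 3.69 with recolonized colon IEL and by 4.67 with colon IEL as the colonic side. Such differences between the pair are the same under any scaling that adds a constant to an array, centring on epithelial markers included.

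**Figure D1:**
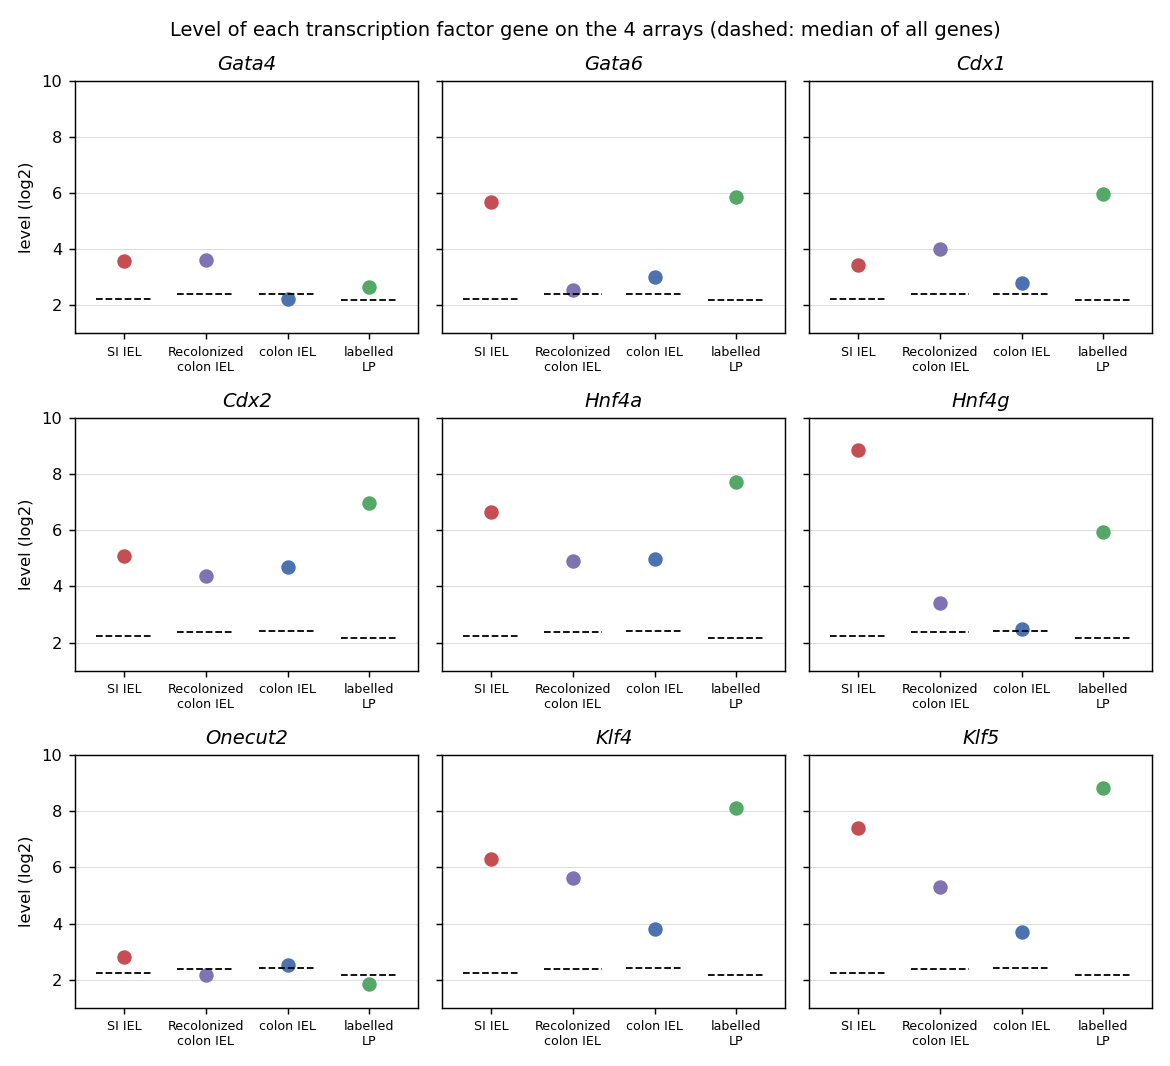
Log2 level (vertical axis) of each of the 9 transcription factor genes on the small intestinal (SI) IEL, recolonized colon IEL, colon IEL and LP-labelled arrays, with 1 point for each array and a dashed line at the median of all genes on that array. Hnf4g is highest in small intestinal IEL (8.85), 6 genes are highest on the LP-labelled array, and Gata4 and Onecut2 stay below 4 throughout.

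Cdx1 was at 3.45 in small intestinal IEL, 4.02 in recolonized colon IEL, 2.79 in colon IEL and 5.96 on the LP-labelled array. Cdx2 was at 5.08, 4.39, 4.68 and 6.98 on the arrays in the same order. Both were highest on the epithelium-rich colonic array, and the other 3 levels of Cdx2 lay within 0.69 of each other. The small intestinal level was lower than that of the LP-labelled array, with differences of −2.51 for Cdx1 and −1.90 for Cdx2. These differences lay inside the range of the pan-epithelial markers, 3 of which had a smaller value than Cdx1 and 7 a smaller value than Cdx2. Centred on those markers, Cdx1 differed by −0.35 and Cdx2 by 0.25, so the direction for Cdx2 flipped; centred on Epcam alone, they differed by −1.18 and −0.58. Small intestinal levels were within 2-fold of both colon IEL arrays, with differences for Cdx1 of −0.56 against recolonized and 0.66 against unmanipulated colon IEL, and for Cdx2 of 0.69 and 0.40. The last of these turned to −0.61 under quantile normalization and −0.52 under lowess.

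Gata6 was at 5.69 in small intestinal IEL, 2.55 in recolonized colon IEL, 3.01 in colon IEL and 5.85 on the LP-labelled array. The small intestinal and the epithelium-rich colonic level lay close together, and the colon IEL levels far below both. The difference was −0.16 against the LP-labelled array, 3.14 against recolonized colon IEL and 2.68 against colon IEL. The level on the colon IEL arrays was near their medians of 2.39 and 2.41. Relative to the pan-epithelial median, the difference between small intestinal IEL and the LP-labelled array was 2.0, a reversal of its sign.

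Gata4 was faint on every array, at 3.59 in small intestinal IEL, 3.61 in recolonized colon IEL, 2.22 in colon IEL and 2.66 on the LP-labelled array. The small intestinal level was at the 73.3rd percentile of its array and was matched by the recolonized level, at the 79.0th percentile of its own. The small intestinal level was higher than those of colon IEL and of the LP-labelled array by 1.37 and 0.93, and differed from recolonized colon IEL by −0.01. Small intestinal and colonic values therefore overlapped. Gata5, the third GATA factor of the gut epithelium and no member of the 9, separated the arrays more widely: it was at 5.15 in small intestinal IEL, 3.02 in recolonized colon IEL, 2.47 in colon IEL and 2.60 on the LP-labelled array, a difference of 2.55 against the last.

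Of the genes that GATA4 is known to hold down in the mouse jejunum, the ileal bile acid transporter Slc10a2 was at 3.26 in small intestinal IEL and 5.78 on the LP-labelled array, and the ileal bile acid binding protein Fabp6 at 8.55 and 5.74. The pair thus lay on opposite sides in this comparison, lower for Slc10a2 (−2.52) and higher for Fabp6 (2.82). The other 2 measured ileal bile acid genes, the transporter subunit Slc51a and the hormone Fgf15, were within 2-fold at −0.71 and 0.92. The median of the 4 was 0.10, and 2.26 when centred on the pan-epithelial markers. Against unmanipulated and recolonized colon IEL, Slc10a2 was higher in small intestinal IEL by 1.58 and 1.51, and Fabp6 by 6.01 and 6.03.

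Onecut2 was near the array median everywhere, at 2.81 in small intestinal IEL, 2.15 in recolonized colon IEL, 2.51 in colon IEL and 1.84 on the LP-labelled array. Its small intestinal level was the highest of the 4, and its differences from the colonic arrays, 0.66, 0.30 and 0.98, were all within 2-fold. Its paralogs Onecut1 and Onecut3 differed between the small intestinal and the LP-labelled array by 0.02 and 0.21, and Onecut3 was lower in small intestinal than in recolonized colon IEL (−1.08).

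Klf4 was at 6.31 in small intestinal IEL, 5.62 in recolonized colon IEL, 3.81 in colon IEL and 8.11 on the LP-labelled array. Klf5 was at 7.41, 5.32, 3.69 and 8.83 in that order. Both genes thus ordered the 4 arrays in the same way, which was also the order of the pan-epithelial medians. The small intestinal level was lower than on the LP-labelled array, with differences of −1.80 for Klf4 and −1.43 for Klf5, and with centring on the pan-epithelial markers these differences turned to 0.35 and 0.73, but with centring on Epcam alone they stayed negative, at −0.48 and −0.11. Small intestinal Klf5 was higher than recolonized and unmanipulated colon IEL by 2.09 and 3.72, and Klf4 by 0.69 and 2.50.

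Counted together, 1 of the 9 genes was at least 2-fold higher in small intestinal IEL than on the LP-labelled array (Hnf4g), 5 were at least 2-fold lower (Cdx1, Cdx2, Hnf4a, Klf4 and Klf5) and 3 were within 2-fold; centred on the pan-epithelial markers, 0 of the 9 were at least 2-fold lower and 5 were higher, while centring on Epcam alone left Cdx1 lower (−1.18). Genes were counted when the brighter of both levels reached the 50th percentile of its array, as all 9 did in each comparison. Of 12164 genes counted, 8.76% were at least 2-fold higher and 15.7% lower (24.5% in all), with a median difference of −0.17, against a median of −1.07 for the 9 genes. Centring on the pan-epithelial markers adds 2.15 to each difference, which puts most genes of the array on the higher side (10614 of 12164 at 2-fold or more), so it places a gene relative to epithelial markers and gives no count of its own. Before centring, 4 of the 9 genes (Gata4, Gata6, Hnf4g and Onecut2) had differences above all 11 epithelial markers, as did 85.6% of the genes counted, T cell genes included.

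Against colon IEL of unmanipulated mice, 6 of the 9 genes were at least 2-fold higher in small intestinal IEL (Gata4, Gata6, Hnf4a, Hnf4g, Klf4 and Klf5) and 0 lower, where 24.4% of 12553 genes were higher and 5.98% lower (30.4% in all). The median difference was 1.68 for the 9 genes and 0.30 for all genes counted. Pan-epithelial markers moved in the same direction, with a median difference of 1.78 and 7 of 11 at least 2-fold higher. Hnf4g and Klf5 had larger differences than all 11 of these markers, as did 1.59% of all genes counted. Centred on the markers, 2 of the 9 were at least 2-fold higher (Hnf4g and Klf5) and 3 lower (Cdx1 at −1.12, Cdx2 at −1.38 and Onecut2 at −1.48). Gata6 and Klf4 were within 2-fold at 0.90 and 0.71, and Gata4 and Hnf4a turned to −0.41 and −0.10. The same centring put 406 of the 12553 genes counted at least 2-fold higher and 8618 lower.

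Against recolonized colon IEL, 4 of the 9 genes were at least 2-fold higher in small intestinal IEL (Gata6, Hnf4a, Hnf4g and Klf5) and 0 lower, where 17.9% of 12382 genes were higher and 4.76% lower (22.7% in all). The median difference was 0.69 for the 9 genes and 0.20 for all genes counted, beside 0.90 for the pan-epithelial markers. The 3 members above all 11 markers were Gata6, Hnf4g and Klf5, with 5.26% of all genes counted. Centred on the markers, these 3 were still at least 2-fold higher, and Cdx1 was lower at −1.46. Cdx2, Klf4 and Onecut2 turned to −0.21, −0.21 and −0.24. With that centring, 703 of the 12382 genes counted were at least 2-fold higher and 4288 lower. The comparisons with the 3 colonic arrays share the small intestinal array, so they are not independent, and the part of epithelial content in these differences was not tested.

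**Figure D2:**
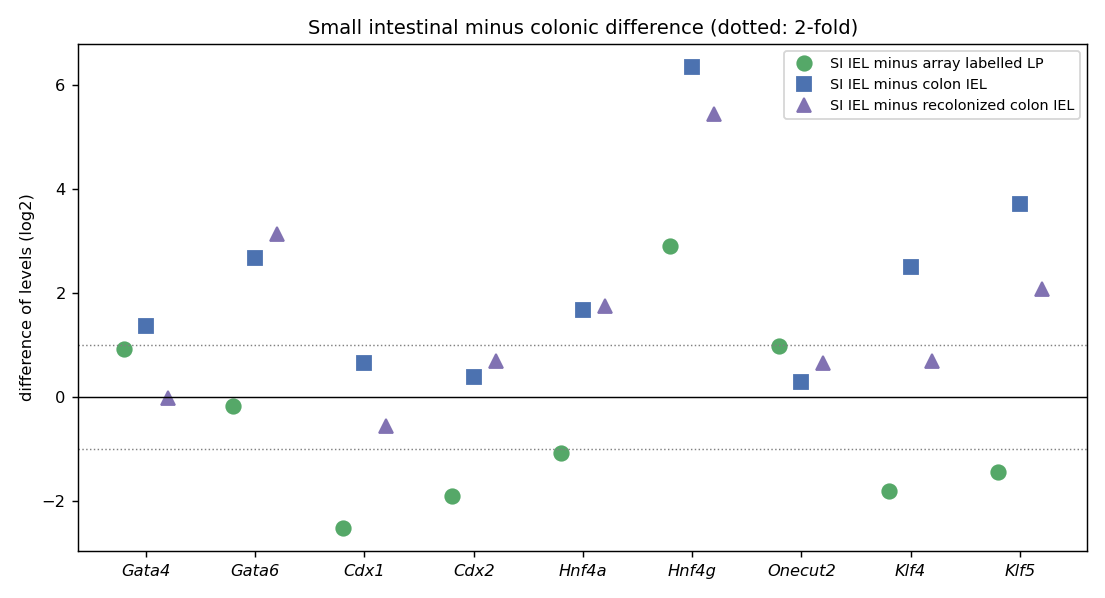
Difference of log2 levels (vertical axis) for each of the 9 genes, small intestinal IEL minus each of the 3 colonic arrays, with dotted lines at 2-fold. Hnf4g is positive in all 3 comparisons (2.90, 6.35 and 5.45), whereas Hnf4a, Klf4 and Klf5 are negative against the LP-labelled array and positive against both colon IEL arrays, and Cdx1 is negative against 2 of the 3 colonic arrays; centred on pan-epithelial markers, the values of Hnf4a, Klf4 and Klf5 against the LP-labelled array turn positive and that of Hnf4a against colon IEL turns negative.

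Recolonized and unmanipulated colon IEL were set side by side to see whether the factors differed after antibiotics and the return of bacteria, which cannot be told apart here. Of the 9 genes, 4 were at least 2-fold higher in recolonized colon IEL and 0 lower, where 6.04% of 12443 genes were higher and 3.06% lower (9.1% in all). These were Klf4 at 5.62 against 3.81, Klf5 at 5.32 against 3.69, Gata4 at 3.61 against 2.22 and Cdx1 at 4.02 against 2.79. The other 5 were within 2-fold: Cdx2, Hnf4a, Gata6 and Onecut2 differed by −0.29, −0.08, −0.46 and −0.36, and Hnf4g by 0.90. Over the alternative normalizations and centrings, Hnf4g ran from 0.26 to 1.13, and up to 5 members were higher. The median over the 9 genes was 0.90, beside 0.13 over all genes counted. On the same array, colonocyte markers were higher by a median of 2.05 (7 of 10 at least 2-fold), goblet cell markers by 1.42 (4 of 6) and pan-epithelial markers by 0.64 (4 of 11). Centred on the pan-epithelial markers, Klf4 differed by 1.16 and Klf5 by 0.99, leaving Klf4 as the 1 member at least 2-fold higher. Gata6 was then lower, at −1.10. So centred, 133 of the 12443 genes counted were at least 2-fold higher and 2351 lower. The part of epithelial content in these differences was not tested.

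Within colonic material, colon IEL of unmanipulated mice had 7 of the 9 genes at least 2-fold lower than the LP-labelled array and 0 higher, where 34.7% of 12788 genes were lower and 10.5% higher (45.2% in all). The differences ran from −5.14 for Klf5 and −4.30 for Klf4 to −2.30 for Cdx2, while Gata4 and Onecut2 differed by −0.44 and 0.67. All 11 pan-epithelial markers were lower as well, with a median of −3.98. Centring on these markers turned the sign of Gata4, Gata6, Cdx1, Cdx2, Hnf4a and Hnf4g, and left Klf5 as the 1 member at least 2-fold lower. It put 12031 of the 12788 genes counted at least 2-fold higher and 100 lower.

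The other members of the factor families were examined next. Of the 15 other Krüppel-like factor genes, 11 were above the level floor between small intestinal IEL and the LP-labelled array. Of these, 3 were at least 2-fold lower (27.3%) and 1 higher (9.09%), beside 15.7% and 8.76% of all genes counted. The median difference was 0.02 over the 15. Klf9, Klf10 and Klf6 were lower, with differences of −1.60, −1.59 and −1.53. Centring on the pan-epithelial markers moved the median to 2.17. The 1 higher was Klf2, a factor of resting T cells, at 4.16 in small intestinal IEL, 5.66 in recolonized colon IEL, 5.25 in colon IEL and 2.93 on the LP-labelled array. Gata3, the GATA factor of T cells, was at 2.80, 4.29, 3.82 and 1.95 in that order, so its order over the arrays differed from those of Gata4, Gata5 and Gata6. Gata1, Gata2 and Cdx4 were below the level floor in every comparison, and Pdx1, the ParaHox factor of the duodenum, was between 2.08 and 2.72 on the 4 arrays.

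Among other transcription factors of the gut epithelium, 30 of 33 were measured and 27 were above the floor between small intestinal IEL and the LP-labelled array. At 2-fold, 16 were lower (59.3%) and 4 higher (14.8%), beside 15.7% and 8.76% of all genes counted. The median difference over the 30 was −1.33, which turned to 0.82 when centred on the pan-epithelial markers. Pparg, a nuclear receptor of colonic surface cells, was at 2.19 in small intestinal IEL and 6.43 on the LP-labelled array. Ehf was at 2.74 and 6.35, the forkhead factor Foxa1 at 2.94 and 6.38, and Sox9, a factor of crypt base cells, at 2.62 and 6.04. Elf3 was lower (−2.80), and so was Isx, an intestinal homeobox gene known to depend on CDX2 (−2.07). Creb3l3, a liver and small intestinal factor of lipid metabolism, was higher, at 5.18 against 3.28. The other 3 higher were Maf, at 5.53 against 2.69, Nr1i3 and Prdm1, with differences of 2.84, 1.27 and 1.18. The 4 measured B cell markers were all at least 2-fold higher in the same comparison, with a median difference of 5.07, and their part in these values was not tested. Elf3, Isx and Creb3l3 were on a list of genes to be named in any case. Maf, Nr1i3 and Prdm1 were picked out after their values were seen.

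The Hox genes listed were mostly faint. They were posterior ones, which mark the hind part of the body axis, and the more central Hoxb6, Hoxb7, Hoxb8 and Hoxd8. Of 16 measured, 10 were above the floor in the same comparison. Of these, 4 were at least 2-fold lower in small intestinal IEL (40.0%) and 0 higher, beside 15.7% and 8.76% of all genes counted. The 4 were Hoxb6 at 1.99 against 5.17, Hoxb9 at 2.37 against 4.42, Hoxa9 at 1.40 against 2.91 and Hoxd13 at 1.80 against 3.14. The median difference of −0.41 over the 16 turned to 1.74 with centring on the pan-epithelial markers. In small intestinal IEL Hoxb9 was also lower than in unmanipulated colon IEL, which had 4.07, and within 2-fold of recolonized colon IEL, which had 3.25.

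**Figure D3:**
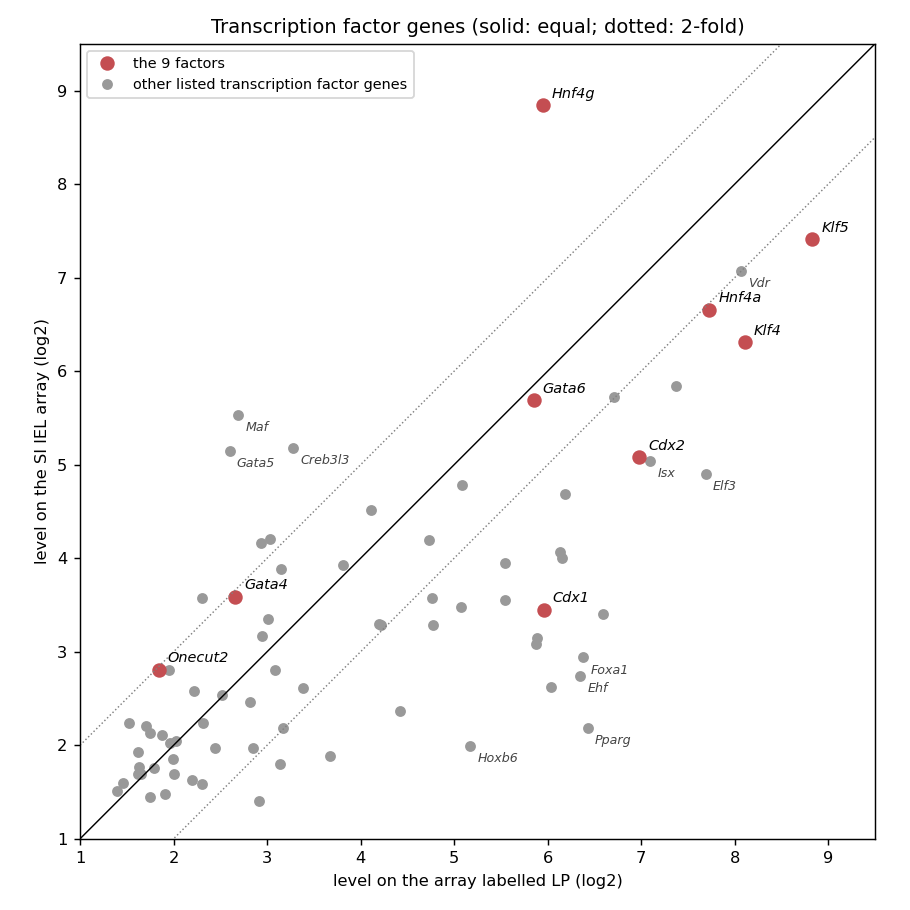
Log2 level on the small intestinal (SI) IEL array (vertical axis) against that on the LP-labelled array (horizontal axis) for the 9 factors (red) and the other listed transcription factor genes (grey), with a solid line of equal levels and dotted lines at 2-fold. Hnf4g lies with Gata5, Maf and Creb3l3 above the upper dotted line, and Cdx1, Cdx2, Klf4 and Klf5 lie below the lower one, Hnf4a on its edge, with Pparg, Ehf, Foxa1 and Hoxb6; centring on pan-epithelial markers would move every point up by 2.15.

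At 2-fold or more, 8.76% of all genes counted were higher in small intestinal IEL than on the LP-labelled array, and 15.7% lower. Of 13 genes known to depend on HNF4 factors, 7 were higher and 1 lower, with a median of 1.5. Among them, the fatty acid binding protein Fabp1 was at 8.99 against 1.54, the apolipoproteins Apoa4 and Apoa1 at 9.89 against 3.13 and at 8.39 against 4.74, and Mttp, which loads lipid onto apolipoprotein B, at 8.08 against 2.89. Apob was at 9.58 against 7.77. The 5 brush border genes of the list, which were Vil1, Myo1a, Cdhr2, Cdhr5 and Ush1c, were all within 2-fold, with differences of 0.92, 0.44, −0.74, −0.74 and −0.89. Centred on the pan-epithelial markers they were at 1.26 to 3.08, all at least 2-fold higher, as were 10614 of the 12164 genes counted. Ttr, a thyroid hormone carrier best known from the liver, was the 1 lower, at 2.24 against 4.33. Against recolonized and unmanipulated colon IEL, 12 of the 13 were higher in small intestinal IEL in each case, with medians of 4.48 and 5.25. Over all genes counted, 17.9% and 24.4% were higher.

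Genes known to be bound or activated by CDX factors fell on both sides. Of 11, 4 were at least 2-fold higher in small intestinal IEL than on the LP-labelled array and 5 lower, with a median of 0.11. Over all genes counted, 8.76% were higher and 15.7% lower. The brush border enzymes lactase (Lct), sucrase-isomaltase (Sis) and intestinal alkaline phosphatase (Alpi) were higher, at 7.75 against 2.10, 9.53 against 4.82 and 9.5 against 6.37, as was the peptide transporter Slc15a1 by 2.42. Lower were the hormone precursor Guca2a, at 6.65 against 10.54, the brush border protease Mep1a (−2.78), the goblet cell mucin Muc2 (−2.39), the iron oxidase Heph (−1.61) and the adhesion protein Cdh17 (−1.14). After centring on the pan-epithelial markers the medians of the HNF4 and CDX lists were 3.65 and 2.26, beside 1.98 over all genes counted. Both lists hold markers of the region itself, so their differences are not independent of the tissue compared.

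**Figure D4:**
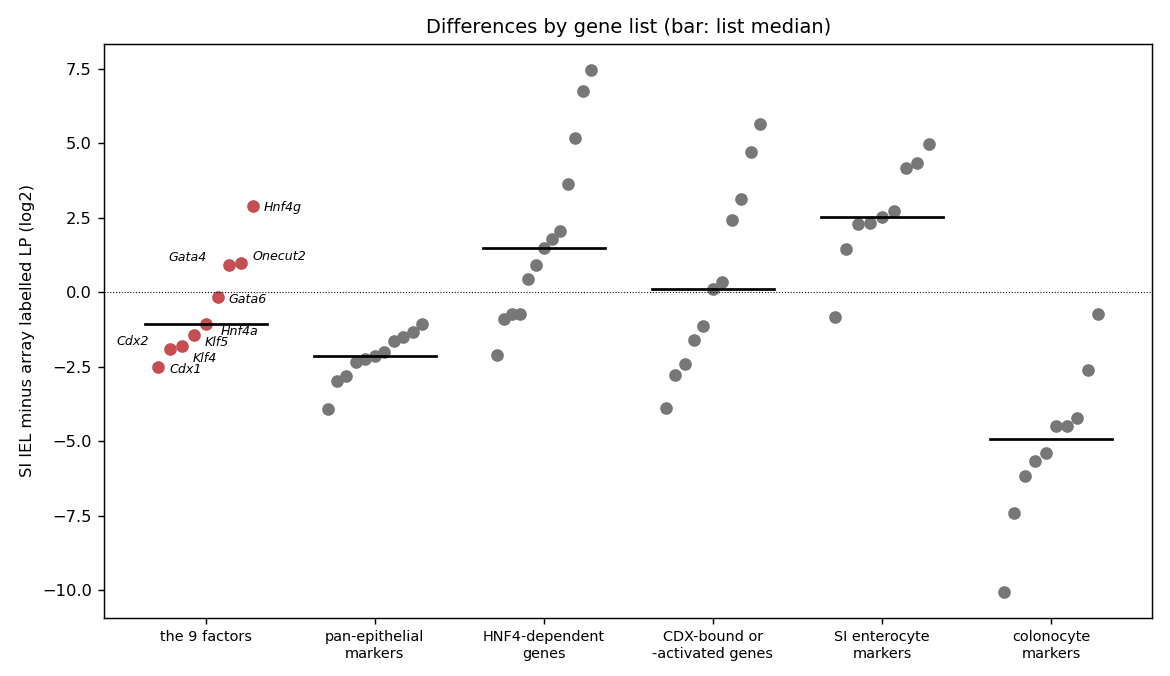
Difference of log2 levels, small intestinal (SI) IEL minus the LP-labelled array (vertical axis), for the 9 factors and for 5 gene lists, with 1 point for each gene and a bar at the list median. The pan-epithelial markers lie between −3.91 and −1.06 with Cdx1, Cdx2, Klf4, Klf5 and Hnf4a among them, and Hnf4g (2.90), Onecut2, Gata4 and Gata6 lie above all of them, as do 85.6% of the genes counted; centring on these markers would move every point up by 2.15.

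For the 7 members whose level spanned 2 or more over the arrays, the genes with the most similar pattern were taken over the 4 arrays after subtraction of each gene's mean, among 19225 genes. Klf5 was nearest to Epcam, the epithelial adhesion molecule, with a root mean square difference of 0.09, followed by Spint1 and Myo6 with 0.12 and 0.14. Epcam itself was at 7.88 in small intestinal IEL, 5.91 in recolonized colon IEL, 4.28 in colon IEL and 9.20 on the LP-labelled array. Hnf4g was nearest to Slc15a1, Arg2 and Guca2b, with 0.20, 0.25 and 0.26. Klf4 was nearest to Gfpt1 (0.03), Ms4a8a (0.13) and Ndufa11 (0.14), and Hnf4a to Arpin (0.04), Ndufs4 (0.08) and Leprot (0.09). Cdx1 was nearest to Nfib (0.08), Ptgfrn (0.10) and Ceacam1 (0.12), Cdx2 to Marveld2 (0.05), Far1 and Slc35f6 (0.07 each), and Gata6 to Plbd1 (0.10), Cryl1 (0.13) and Rny3 (0.16). With 4 points and so many candidates, some gene lies close to any pattern, so these names describe likeness only.

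As a measure of spread within the main comparison, differences between small intestinal IEL and the LP-labelled array had an SD of 0.34 over 64 ribosomal protein genes, and the differences given by 2 probe sets of 1 gene differed with an SD of 0.97 over 733 genes. Both values come from within the same pair of arrays and hold no variation between samples, so they do not say which of the 9 differences would recur.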

How the data were processed

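The authors deposited log2 values made, per the submitters' processing notes, with Affymetrix Expression Console. The tool's version, the probe summarization, the normalization and the build were not given in the sources used here. The table held 41345 probe sets, of which 23521 listed 1 gene symbol, 1814 several and 16010 were not in the gene table used here. Gene IDs of 23328 matched RefSeq (GRCm38.p6), which also gave the promoter sequences, and 0 symbols were updated. A gene took its probe set with 1 symbol and the highest mean over the 4 arrays, giving 22180 genes, 1082 of them with several probe sets.

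Arrays were compared by subtracting log2 levels gene by gene. A gene was counted where its brighter level reached the 50th percentile of that array, and called at 2-fold or more. With 1 array for each group there is no test, and the number of arrays limits the precision. Likeness was the root mean square difference of mean-centred levels, searched for members spanning 2 or more, with 3 genes named for each. Listed genes were named as the 4 with the largest difference in a list or as members of the factor families. Some were on a separate list to be named in any case, and others were chosen after their values were seen. The 9 genes and the 21 lists were chosen with earlier results of these data known. Lists held 194 genes, of which 182 were measured, and some genes are not reported here.

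Alternatives were level floors at the 25th and 75th percentile or none, thresholds of 1.5-fold and 3-fold, quantile normalization, averaging of probe sets, centring on pan-epithelial markers or on the median of the genes counted, a lowess correction with a span of 0.3, and another colonic array in place of the one labelled lamina propria T cells. Centring on Epcam alone was added after seeing the data. The steps were tested on simulated data with a noise SD of 0.3. Python 3.11.15, numpy 2.4.6, pandas 2.3.3, statsmodels 0.14.6 and matplotlib 3.10.9 were used.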

Additional observations from a re-analysis of the deposited data

How the results depend on the processing

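No paired analysis was possible because each group was 1 array, and no replicate could be left out. Faint genes (Gata4, Onecut2) limit what these arrays can show, and the causes of the shifts below were not tested beyond the constant each centring adds. For small intestinal IEL minus the LP-labelled array, the 4 rescalings gave 36 values of the 9 genes. Of these, 22 kept their call of higher, lower or within 2-fold, 4 fell inside the threshold, 5 passed it and 5 reversed. The 22 include Gata6, which stayed within 2-fold but turned from −0.16 to 0.10 (quantile normalization), 0.02 (median centring) and 0.18 (lowess). Probe set averaging and the level floors cannot change a difference of these genes, but a floor can change a call. With the floor at the 75th percentile, Gata4 and Onecut2 fell below it in this comparison. Against colon IEL, Gata4 fell below that floor and lost its call, which left 5 of the 9 higher. Hnf4g kept 2-fold under every normalization, from 2.90 to 5.05. At 1.5-fold, 3 of the 9 were higher (Gata4 at 0.93 and Onecut2 at 0.98 joined), and at 3-fold 3 were lower (Hnf4a at −1.07 and Klf5 at −1.43 left). Hnf4a was −0.96 with quantile normalization, −0.90 with median centring and −0.73 with lowess. Gata4 was 1.11 with median centring and 1.09 with lowess, and Onecut2 1.15 with median centring, so 3 genes were higher under the first and 2 under the second. Centred on pan-epithelial markers, 5 were higher and 0 lower: Gata4 3.09, Gata6 2.0, Cdx1 −0.35, Cdx2 0.25, Hnf4a 1.08, Onecut2 3.13, Klf4 0.35 and Klf5 0.73. Of the 12164 genes counted, 10614 were then higher and 169 lower. Centred on Epcam alone, Gata4 was 2.25, Gata6 1.17, Cdx1 −1.18, Cdx2 −0.58, Hnf4a 0.25, Hnf4g 4.22, Onecut2 2.30, Klf4 −0.48 and Klf5 −0.11. Colon IEL as the colonic side gave Gata4 1.37, Gata6 2.68, Cdx1 0.66, Cdx2 0.40, Hnf4a 1.68, Klf4 2.50 and Klf5 3.72, and recolonized colon IEL gave Gata6 3.14, Cdx1 −0.56, Cdx2 0.69, Hnf4a 1.76, Klf4 0.69 and Klf5 2.09.

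In the other comparisons, at 1.5-fold 7 of the 9 were higher in small intestinal than recolonized colon IEL and 1 was higher in colon IEL than on the LP-labelled array, as it was with median centring; at 3-fold 2 were higher in recolonized than unmanipulated colon IEL. Centred on pan-epithelial markers, small intestinal IEL had 2 higher and 3 lower than colon IEL and 1 lower than recolonized colon IEL. Recolonized had 1 higher and 1 lower than colon IEL, and colon IEL had 5 higher and 1 lower than the LP-labelled array. Over all genes counted, the same centring gave 406 higher and 8618 lower, 703 and 4288, 133 and 2351, and 12031 and 100, in that order. Calls that reversed, and values that passed 2-fold on the other side, under that centring were, for small intestinal minus colon IEL, Gata4 −0.41, Cdx1 −1.12, Cdx2 −1.38, Hnf4a −0.10, Onecut2 −1.48 and the median of other gut factors −1.64. Signs also turned within 2-fold for small intestinal minus recolonized colon IEL (Cdx2 −0.21, Klf4 −0.21, Onecut2 −0.24) and for recolonized minus colon IEL (medians of HNF4-dependent genes −0.35 and Krüppel-like factors −0.39, among others). Cdx2 in colon IEL minus the LP-labelled array was within 2-fold under quantile normalization (−0.97) and lowess (−0.82). For colon IEL minus the LP-labelled array such reversals were Gata4 3.54, Gata6 1.14, Cdx1 0.82, Cdx2 1.68, Hnf4a 1.23 and Hnf4g 0.53. List medians that did so were 3.80 (Krüppel-like factors), 2.20 (other gut factors), 3.94 (Hox genes), 1.05 (HNF4-dependent) and 0.44 (ileal bile acid). For small intestinal IEL minus the LP-labelled array the medians of other gut factors and the listed Hox genes were 0.82 and 1.74.

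Over all genes, the share of 2-fold calls on the higher side was 35.8% for small intestinal IEL against the LP-labelled array, and 45.1%, 46.3% and 47.5% with quantile normalization, median centring and lowess. Against colon IEL it was 80.3%, with 54.6%, 57.9% and 60.3%, and against recolonized colon IEL 79.0%, with 54.8%, 62.0% and 62.3%. Recolonized against unmanipulated colon IEL had 66.3%, with 51.5%, 48.2% and 46.6%, and colon IEL against the LP-labelled array 23.2%, with 42.7%, 47.6% and 44.2%. Beside the fold thresholds and the pan-epithelial centring, which change counts by construction, gene counts moved by over 1.5 times as follows. Small intestinal against colon IEL had 3059 higher, with 1732 under quantile normalization and 1653 under lowess, and 751 lower, with 1439 under quantile normalization, 1601 under median centring and 486 with the floor at the 75th percentile. Against recolonized colon IEL, 2219 higher became 1309 (quantile) and 1435 (lowess), and 589 lower became 1078 (quantile) and 1041 (median centring). Recolonized against unmanipulated colon IEL had 751 higher, with 437 under lowess, and 381 lower, with 767 under quantile normalization. Colon IEL against the LP-labelled array had 1344 higher, with 2847 under median centring, and 4437 lower, with 2667 (quantile) and 2356 (lowess).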
